A study of Homo sapiens with 15 samples.

Results

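MIR191 and MIR425 are a pair of microRNA (miRNA) genes that lie in one intron of DALRD3, and these 3 genes of a locus on chromosome 3 are described here in every library of a small RNA sequencing series. They were taken by name from the deposited count table, where they are 3 of 50037 listed genes, and all 3 were among the 4099 genes with enough counts to test. The series holds 15 libraries of wild-type cells labelled HEK-293, a human embryonic kidney line, although the series title speaks of macrophages. All cells were incubated for 18 h, in 3 groups of 5 libraries. The VLDL group received very low-density lipoprotein and is titled pcDNA:VLDL, with no statement of what the pcDNA was. The LPL:VLDL group received the lipid products that lipoprotein lipase releases from VLDL. The GKT136901 group received those products together with GKT136901 at 20 µM, which blocks the NADPH oxidases NOX1 and NOX4. There was no group with the inhibitor alone. Replicates 1 to 5 of each group carry the labels of experiments 2 to 6, so each experiment gave 1 library per group. Nothing states that the experiments used separate cultures, so the p-values below measure only how these libraries vary, and part of that may be technical.

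A miRNA gene is transcribed as a longer primary transcript, cut by Drosha to a hairpin and by Dicer to a short duplex, of which mainly one strand is loaded into an Argonaute protein. Bases 2 to 8 of the loaded strand, the seed, set most of its target choice. A miRNA inside a host gene can share the host's transcript, so neighbouring miRNAs and their host are often compared, although processing and stability differ between hairpins. miR-191 is abundant in many human tissues and is often used as a reference in qPCR assays of miRNA. DALRD3 encodes a protein that binds certain arginine tRNAs and helps METTL2 methylate them.

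In the RefSeq annotation of GRCh38.p14, all 3 genes are on the minus strand of chromosome 3. DALRD3 runs from 49015488 to 49021505, with 3459 bases of counted exon in 11 blocks. MIR191 (49020618 to 49020709, a hairpin of 92 bases) and MIR425 (49020148 to 49020234, 87 bases) lie in the same DALRD3 intron, from 49019436 to 49020845. MIR191 is the one nearer the host's start, 796 bases downstream of it against 1271 for MIR425, and 383 bases separate the hairpins. Neither hairpin overlaps an exon of another gene, whereas DALRD3 exons overlap those of WDR6 and NDUFAF3, where reads over both genes were not counted and strand was not used.

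The mature sequences from the RefSeq table are shown because the arms of both hairpins come from one locus. Seeds are in capitals, and the 3 arms printed have different ones.
hsa-miR-191-5p: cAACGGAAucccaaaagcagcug
hsa-miR-191-3p: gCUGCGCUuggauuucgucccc
hsa-miR-425-3p: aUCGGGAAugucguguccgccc
The 5p and 3p arms of miR-191 lie at chr3:49020672-49020694 and chr3:49020631-49020652, and miR-425-3p lies at chr3:49020159-49020180. miR-425-5p is the other arm of MIR425, and its seed was not compared here. Each of the 3 seeds shown was shared by 0 other mature names of the 2370 in that table. In the hairpin of MIR191, printed below with both arms in capitals, the deposited count adds up reads from either arm.
MIR191: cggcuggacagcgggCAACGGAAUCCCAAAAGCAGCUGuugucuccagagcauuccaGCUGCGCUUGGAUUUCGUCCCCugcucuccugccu

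The libraries held 5076917 to 9757123 counts each, with GKT136901 replicate 2 the shallowest. Levels are given as CPM (counts relative to library depth), scaled between libraries by the trimmed mean of M values (TMM) unless a sentence says otherwise. The 3 libraries of experiment 2 (replicate 1 of each group) stood apart in scaling, with TMM factors of 1.16 to 1.34 against 0.765 to 1.03 elsewhere. Of their counts 30.2% to 32.7% were on miRNA genes, and in the other 12 libraries 30.8% (LPL:VLDL replicate 2) to 48.7%. Of 16 HEK-293 marker genes, 10 had any count and these summed to 0.740 to 4.19 CPM of all counts per library, with LIN28B, SALL1, LHX1, NEFM, PRAME and HOXC10 at 0. Of 18 myeloid and macrophage genes, 17 had a count (AIF1 was at 0), and they summed to 81.1 to 128 CPM in experiment 2 and 28.4 to 57.7 CPM in the other 12 libraries. Most of these counts were on CSF1R (1771), ITGB2 (1382), SPP1 (1316) and LAPTM5 (935). Other macrophage markers were thin, such as CD14 (31), LYZ (30), MRC1 (4) and CD163 (3). A count on an mRNA here is a fragment in a small RNA library, and by these fragments the labelled cell line was thinly marked, with fewer HEK-293 than myeloid marker counts (289 against 6766). Red cells and platelets are rich in miR-191, and of 13 genes marking them 2 had a count, 3 counts in all, with HBB, ALAS2, SLC4A1, PPBP and GP9 at 0. The near-identical HBA1 and HBA2 and the miRNA genes of that list were also at 0, but their reads map to several places or lie over other exons and would not have been counted. In cultures sequenced in bulk, fewer cells and less RNA per cell cannot be told apart.

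MIR191 was one of the most abundant miRNA genes in these counts, MIR425 was lower, and exonic fragments of the host were scarce. MIR191 held 1463463 counts over the 15 libraries, 2.83% of all miRNA counts and 1.1% of all counts. Per base of hairpin, and on the scale of all counts, it stood at 120 ± 15.8 CPM per base (SD, n = 15), the 6th of 762 miRNA genes with a count and the 6th to 8th in every single library. The table lists 2152 miRNA genes, and reads mapping to several places or over several genes were left out. The rank and shares therefore hold among genes as counted, and other miRNA genes may be undercounted. MIR146B above it was at 246 ± 29.4 CPM per base and was higher in all 15 libraries. MIRLET7F2 below it was at 98.8 ± 18.7 and was lower in 12 of 15, so the order to that neighbour was within the spread. MIRLET7F2 shares its main mature sequence with another let-7 gene and its count is uncertain, because reads mapping to several places were not counted.

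MIR425 held 180064 counts, 0.348% of the miRNA counts. At 15.5 ± 2.68 CPM per base it ranked 21st among miRNA genes with a count, between the 19th and the 24th in single libraries. MIR100, next above at 16.3 ± 19.8 CPM per base, was higher in 5 of 15 libraries. MIR532, next below at 14.8 ± 1.99, was lower in 8 of 15, and neither neighbour differed from MIR425 beyond the spread. DALRD3 held 335 counts. Per base of hairpin or counted exon, MIR191 averaged 165586 times and MIR425 21490 times the host's level, a comparison of small RNAs with exon fragments in libraries made for small RNA. Counting error alone (exact Poisson, 95%) was 0.547% to 0.821% of a library's count for MIR191, 1.52% to 2.62% for MIR425 and 30.1% to 82.9% for DALRD3. These intervals cover counting error only.

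The first comparison asked whether the hydrolysis products changed the locus relative to intact VLDL. For MIR191 the VLDL libraries stood at 7220, 12128, 11120, 10274 and 11691 CPM in replicate order, and the LPL:VLDL libraries at 7973, 13257, 14178, 11716 and 10131 CPM. The groups overlapped, replicate 1 was the lowest library of both, and LPL:VLDL was higher in 4 of 5 experiments. The means were 10487 ± 1954 and 11451 ± 2480 CPM (SD, n = 5 each), a log2 difference of 0.13 (SE 0.19, 95% interval -0.25 to 0.51; edgeR's quasi-likelihood test, Benjamini-Hochberg adjusted p = 0.999). That interval runs from 0.839 to 1.42 times the VLDL level, and from 0.946 to 1.25 times with the experiment as a block. On the scale of all counts, without TMM factors, the estimate was -0.02, and the median of all tested genes moved from 0.01 to -0.11 on the log2 scale, so the sign for MIR191 differed between the scales.

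MIR425 stood at 914, 1302, 1114, 1515 and 1375 CPM with VLDL and at 1205, 1220, 1554, 1828 and 1597 CPM with LPL:VLDL. The groups overlapped, and LPL:VLDL was higher in 4 of 5 experiments, with experiment 3 the exception. The log2 difference was 0.25 (SE 0.19, 95% interval -0.14 to 0.64; edgeR adjusted p = 0.999). With the experiment as a block the estimate was again 0.25 with an interval of 0.01 to 0.48, an unadjusted p of 0.0384 that ranked 132nd of 4099 genes, and an adjusted p of 0.988 by edgeR. The blocked estimate was 0.10 (95% interval -0.13 to 0.34) on the scale of all counts and 0.12 (-0.03 to 0.28) with miRNA genes fitted alone, where both intervals include 0. With DESeq2 size factors and the block it was 0.24 (0.01 to 0.47), an interval above 0, with an edgeR adjusted p of 0.989. MIR425 therefore did not pass the test in any of these fits, and 172 genes (4.2%) had an unadjusted p under 0.05 with the block. Over the 291 miRNA genes tested the median difference was 0.12, near the value of MIR191, and over all 4099 genes it was 0.01.

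DALRD3 had 24, 21, 30, 13 and 14 counts with VLDL and 19, 14, 31, 46 and 44 with LPL:VLDL. LPL:VLDL replicates 4 and 5 were the highest 2 of all 15 libraries, and the other 3, at 14 to 31 counts, overlapped the VLDL libraries. In CPM the means were 2.11 ± 0.641 and 3.62 ± 1.87 (SD, n = 5 each), and LPL:VLDL was higher in 3 of 5 experiments. The log2 difference was 0.77 (SE 0.47, 95% interval -0.19 to 1.73; edgeR adjusted p = 0.999). Without LPL:VLDL replicate 5 it was 0.51. With all libraries and the experiment as a block it was 0.62 (95% interval -0.30 to 1.55). None of the 3 genes passed in this comparison, in which 0% of tested genes were called without the block and 0.0244% (1 gene) with it, and 77 genes (1.88%) had an unadjusted p under 0.05 by edgeR without it.

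**Figure D1:**
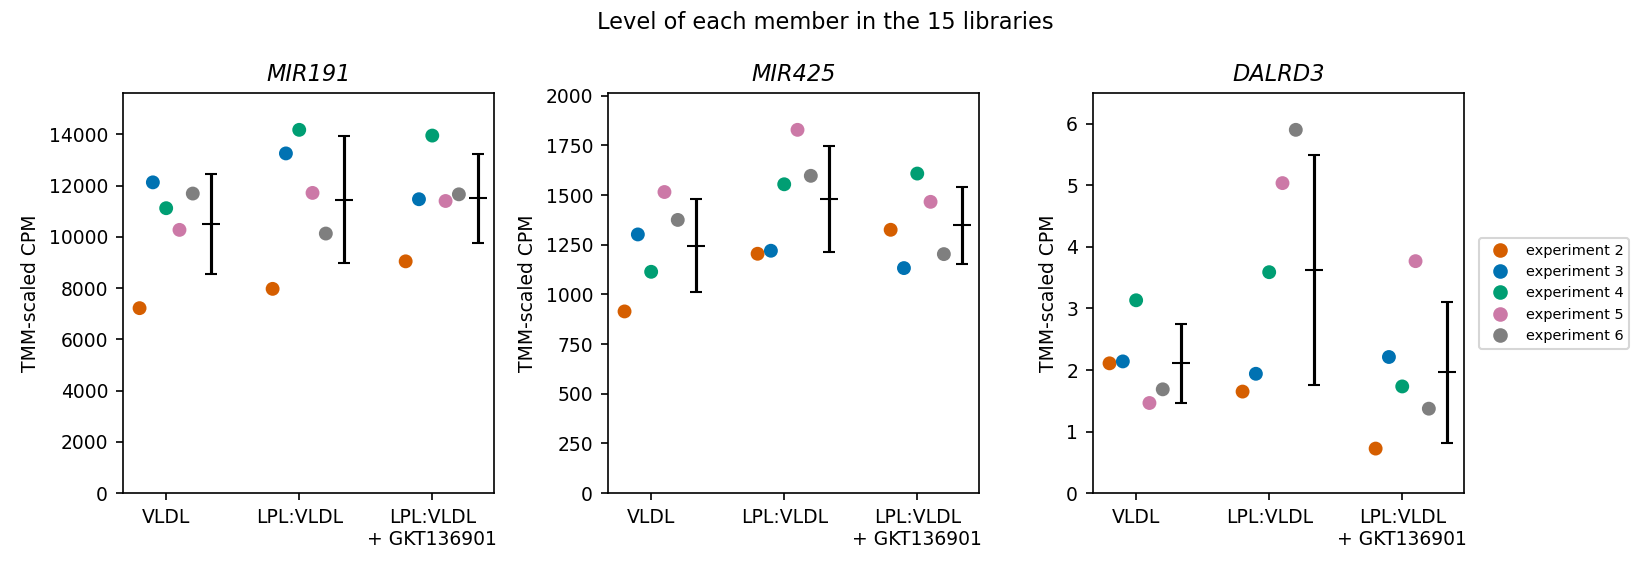
TMM-scaled CPM of MIR191, MIR425 and DALRD3 (vertical axes, each from 0) in the 5 libraries of each treatment group, coloured by experiment, with the group mean (dash) and SD (error bar) beside the points. The groups overlap for every gene, with MIR191 means of 10487, 11451 and 11506 CPM from VLDL to GKT136901.

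The second comparison asked whether the NOX inhibitor changed the locus in the presence of the hydrolysis products. With GKT136901, MIR191 stood at 9046, 11470, 13954, 11401 and 11661 CPM, a mean of 11506 ± 1738. These values lay inside the range of the LPL:VLDL libraries, and were higher in 2 of 5 experiments. The log2 difference from LPL:VLDL was 0.01 (SE 0.19, 95% interval -0.37 to 0.39; edgeR adjusted p = 1.00). The interval runs from 0.772 to 1.31 times the LPL:VLDL level, and from 0.884 to 1.17 times with the experiment as a block. A change within that range was neither shown nor excluded.

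MIR425 stood at 1325, 1133, 1608, 1466 and 1203 CPM with GKT136901, a mean of 1347 ± 193 against 1481 ± 266 with LPL:VLDL (SD, n = 5 each). Experiments 5 and 6 had lower values with the inhibitor, at 1466 against 1828 CPM and 1203 against 1597 CPM, while experiments 2 and 4 had slightly higher ones. The log2 difference was -0.14 (SE 0.19, 95% interval -0.53 to 0.25; edgeR adjusted p = 1.00). DALRD3 had 7, 11, 16, 33 and 12 counts, a mean of 1.96 ± 1.15 CPM, and lay below its LPL:VLDL partner in 4 of 5 experiments. Its log2 difference was -0.88 (SE 0.48, 95% interval -1.86 to 0.09; edgeR adjusted p = 1.00), on 7 to 33 counts per library. It ran from -0.64 without LPL:VLDL replicate 5 to -1.27 without GKT136901 replicate 4, still with an edgeR adjusted p of 1.00. None of the 3 passed in this comparison, in which 0% of genes were called with or without the block, and 87 genes (2.12%) had an unadjusted p under 0.05 by edgeR without it and 151 (3.68%) with it.

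The third comparison set the inhibitor group against VLDL and shares its libraries with the other two, so it is not independent of them. The log2 differences were 0.13 for MIR191 (95% interval -0.25 to 0.51), 0.11 for MIR425 (-0.27 to 0.50) and -0.11 for DALRD3 (-1.09 to 0.87), each with an edgeR adjusted p of 0.999. With the experiment as a block they were 0.14 (-0.06 to 0.34), 0.13 (-0.11 to 0.36) and -0.28 (-1.22 to 0.67), each with an edgeR adjusted p of 0.997. GKT136901 was higher in 3, 2 and 2 of 5 experiments for the 3 genes in that order. Again 0% of genes were called with or without the block, with 91 (2.22%) at an unadjusted p under 0.05 by edgeR without it and 177 (4.32%) with it. The median over the 291 miRNA genes was 0.13, the same as for MIR191 to 2 decimals.

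**Figure D2:**
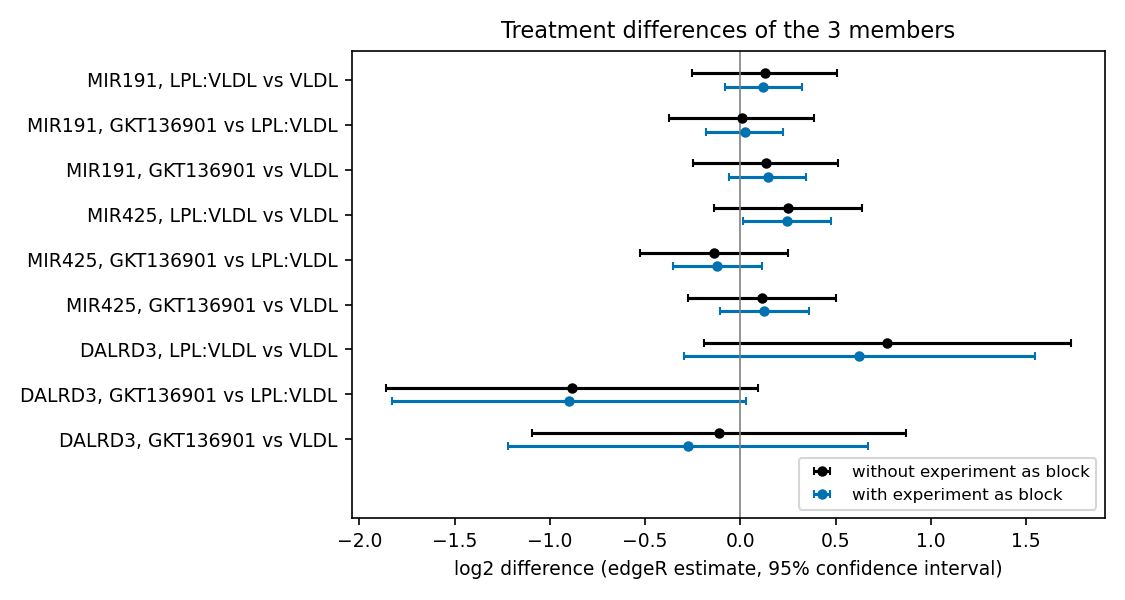
Log2 difference of each gene in the 3 treatment comparisons (horizontal axis) with its 95% confidence interval from edgeR, without and with the experiment as a block. All intervals include 0 except that of MIR425 for LPL:VLDL against VLDL with the block (0.01 to 0.48), whose adjusted p was 0.988.

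On the TMM scale MIR191 differed between experiments. The 3 libraries of experiment 2 stood at 7220 to 9046 CPM and the other 12 at 10131 to 14178 CPM. These ranges did not overlap, and the share of all genes split in this way was not counted. On the scale of all counts, without TMM factors, experiment 2 (9464 to 10637 CPM) lay inside the range of the others (8342 to 14276 CPM). TMM-scaled experiment means were 8079 ± 918, 12285 ± 904, 13084 ± 1704, 11130 ± 758 and 11161 ± 892 CPM for experiments 2 to 6 (SD, n = 3 each). The edgeR test of the experiment term gave a log2 range of 0.69 between experiments and an adjusted p of 0.0024. This call sits among many, since 11.1% of all tested genes and 38.5% of tested miRNA genes (112 of 291) were called, and the range of MIR191 was smaller than the miRNA median of 1.15.

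That call was lost without experiment 2 and with one other scaling. Without the libraries of experiment 2 the range of MIR191 fell to 0.22 (edgeR adjusted p = 0.754), and 3.76% of genes were called. On the scale of all counts it was 0.33 (edgeR adjusted p = 0.235), and with miRNA genes fitted alone it was 0.25 and still called (edgeR adjusted p = 0.0212). It also passed with DESeq2 size factors (0.68, edgeR adjusted p = 0.00261) and with a stricter filter (0.42, edgeR adjusted p = 0.029). Of the genes tested, 35.6% were called with miRNA genes alone, 11% with DESeq2 size factors and 54.5% with the stricter filter. Experiment 2 is also where TMM factors and the myeloid gene sum were highest and the miRNA share of counts was low, and the part of these in the result was not tested. As a share of miRNA counts the order of experiments was another one: MIR191 held 3.04% to 3.47% in the 9 libraries of experiments 2 to 4 and 1.87% to 2.65% in the 6 of experiments 5 and 6, with no overlap between these sets, which were formed after the values were seen.

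MIR425 had a log2 range of 0.48 between experiments and DALRD3 one of 1.18, with edgeR adjusted p-values of 0.136 and 0.709. MIR425 passed in single settings only: leaving out experiment 3 gave 0.52 (edgeR adjusted p = 0.0295), and a stricter filter gave 0.69 (edgeR adjusted p = 0.00806). Those settings called 10.5% and 54.5% of the genes tested, so these calls too sit among many. As a share of miRNA counts MIR425 was at 0.464% ± 0.0582 in experiment 2 and at means of 0.289% to 0.357% in the other 4 experiments. On the TMM scale experiment 2 had the lowest mean for MIR425 too, at 1148 ± 211 CPM against means of 1218 to 1603 CPM in the others, with overlapping libraries. As a share of miRNA counts experiment 2 was high for both genes, at 3.27% ± 0.151 for MIR191, next to 3.28% ± 0.212 in experiment 4.

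**Figure D3:**
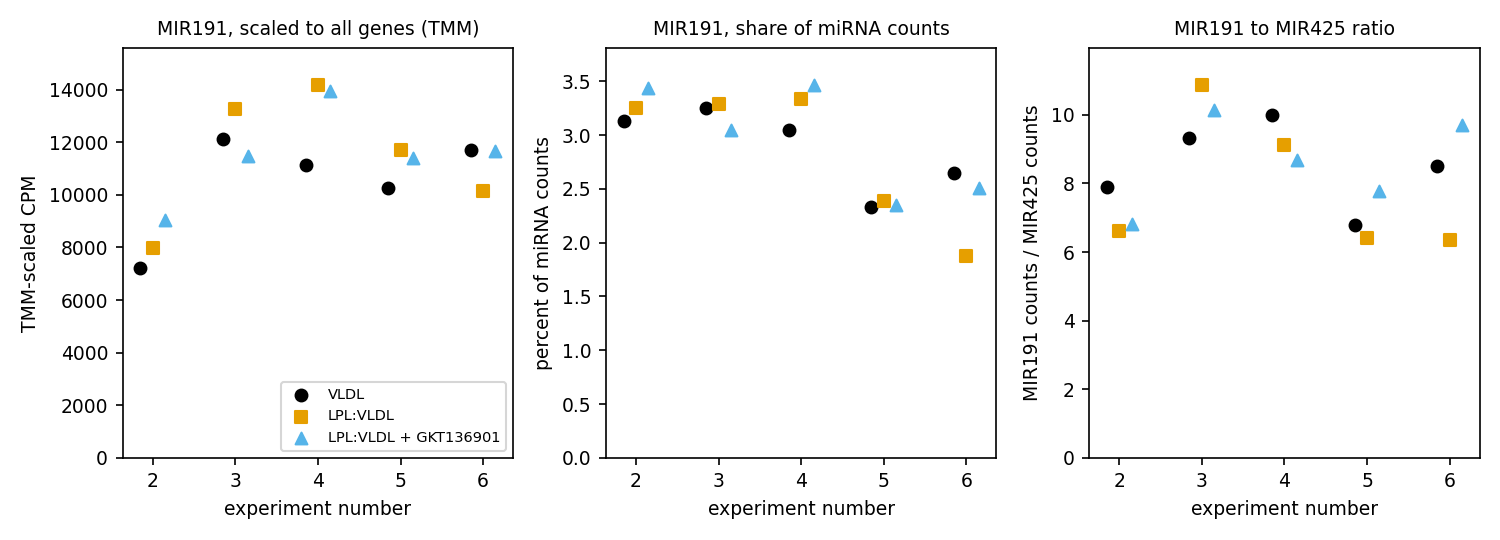
MIR191 as TMM-scaled CPM, MIR191 as percent of miRNA counts, and the ratio of MIR191 to MIR425 counts (vertical axes, from 0) by experiment number (horizontal axis), 1 point per library and 1 symbol per treatment group. On the TMM scale MIR191 is lowest in experiment 2 (7220 to 9046 CPM), and as a share of miRNA counts it is lowest in experiments 5 and 6 (1.87% to 2.65%), while the ratio runs from 6.34 to 10.9.

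The ratio of MIR191 to MIR425 counts within a library does not depend on scaling between libraries. It was 7.89, 9.32, 9.98, 6.78 and 8.50 with VLDL, 6.62, 10.9, 9.12, 6.41 and 6.34 with LPL:VLDL, and 6.83, 10.1, 8.68, 7.78 and 9.69 with GKT136901. MIR191 was thus the larger gene in every library, by 6.34 to 10.9 times in counts and up to 10.3 times per base, and the groups overlapped. The mean log2 ratio differed by -0.13 for LPL:VLDL against VLDL (exact two-sided permutation p = 0.492, adjusted over the 3 comparisons 0.738). For GKT136901 it differed by 0.15 against LPL:VLDL (exact permutation p = 0.429, adjusted 0.738) and by 0.02 against VLDL (exact permutation p = 0.889, adjusted 0.889). The smallest p this design allows is 0.00794. The ratio fell in 4 of 5 experiments from VLDL to LPL:VLDL, and an exact sign-flip permutation test over the 5 experiments gave p = 0.312, where the smallest possible is 0.0625. With GKT136901 it was higher in 3 of 5 experiments against either group, and the sign-flip permutation test against LPL:VLDL gave p = 0.438.

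Between experiments the ratio ranged more widely. It was 7.11 ± 0.685 in experiment 2, 10.1 ± 0.777 in experiment 3, 9.26 ± 0.664 in experiment 4, 6.99 ± 0.708 in experiment 5 and 8.18 ± 1.70 in experiment 6 (SD, n = 3 each). Experiments 3 and 4 lay above experiments 2 and 5 in these means. The experiment accounted for 67.2% of the variance of the log2 ratio, given as a description. In the 9 pairs of other miRNA clusters described below it accounted for 35.8% to 62.6%.

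Sharing an intron did not place MIR425 among the miRNA genes most like MIR191. Over the 15 libraries, log2 CPM of the pair correlated at r = 0.511, a description over libraries that share experiments and TMM factors. Of 63 other miRNA genes with a mean of at least 100 CPM, MIR425 ranked 46th for MIR191, below the median r of 0.695, and MIR191 ranked 45th for MIR425. Without experiment 2, r was 0.06 over 12 libraries. The partner then ranked 29th for MIR191 (median -0.05) and 45th for MIR425 (median 0.451). As deviations from experiment means r was 0.59, 19th for MIR191 (median 0.42) and 26th for MIR425 (median 0.463). As shares of miRNA counts it was 0.521, 33rd for MIR191 (median 0.535) and 28th for MIR425 (median 0.471). As shares without experiment 2 it was 0.376, 40th for MIR191 (median 0.584) and 17th for MIR425 (median 0.181). The rank and the side of the median therefore moved with the setting.

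The miRNA genes most like MIR191 were MIR505 (r = 0.971), MIRLET7G (0.970), MIR186 (0.947), MIR140 (0.912) and MIR98 (0.912). MIRLET7G, a let-7 family gene on the same chromosome but outside this locus, kept r = 0.937 without experiment 2, and 0.985 there as a share of miRNA counts. On the CPM scale without experiment 2, MIR505 was at 0.887, MIR140 at 0.803, MIR186 at 0.770 and MIR98 at 0.674. MIR425 was most like MIR106B (0.818), MIR342 (0.778), MIR96 (0.771), MIR182 (0.764) and MIR769 (0.759), where MIR96 and MIR182 belong to one cluster. Without experiment 2 these r values were 0.691, 0.676, 0.769, 0.629 and 0.683 in that order. As shares of miRNA counts without experiment 2 they were lower, at 0.478 for MIR106B, 0.548 for MIR96, 0.277 for MIR182 and 0.297 for MIR769. On that share scale over all 15 libraries, MIR28 stood among the 5 highest in place of MIR342. Exonic DALRD3 fragments correlated at r = 0.231 with MIR191 and 0.386 with MIR425, over counts of 7 to 46 per library.

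**Figure D4:**
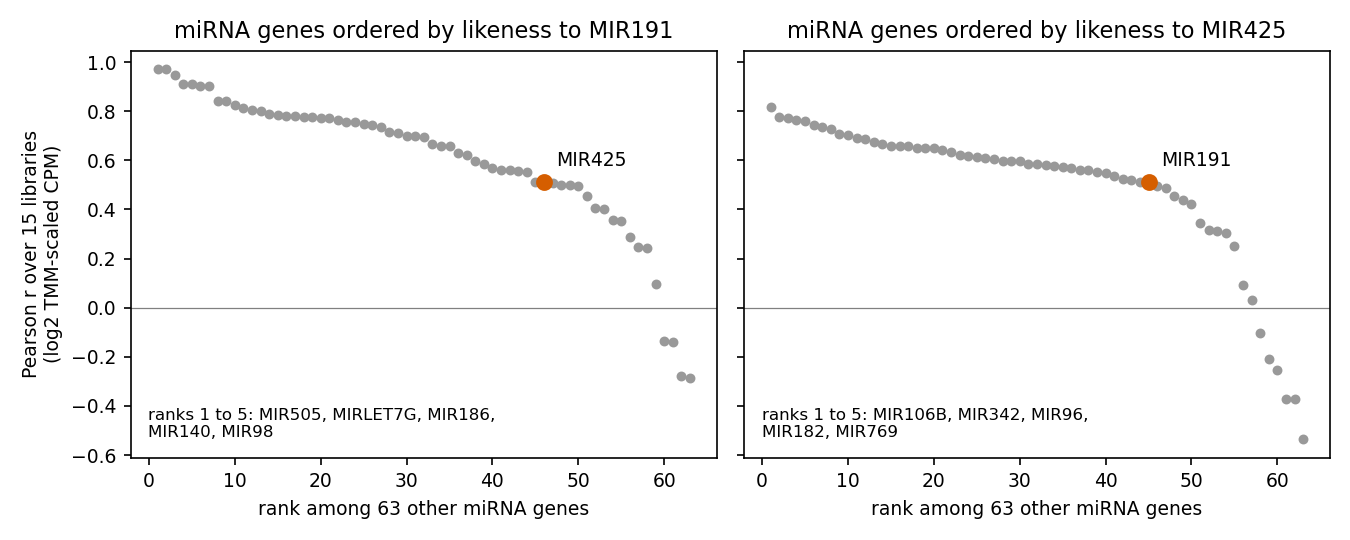
Pearson r of log2 TMM-scaled CPM over 15 libraries (vertical axis) between MIR191 or MIR425 and each of 63 other miRNA genes, ordered by rank (horizontal axis). The intronic partner is marked, at rank 46 for MIR191 and rank 45 for MIR425, with r = 0.511.

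Other clusters of miRNA genes give a scale for this. In 5 further clusters, 9 pairs had counts to compare, and their r ran from 0.427 to 0.960 (median 0.788), with 8 of 9 above the 0.511 of MIR191 and MIR425. The SD of the log2 count ratio was 0.264 for MIR191 and MIR425 and 0.0655 to 0.302 in the other pairs (median 0.184), with 7 of 9 below it. MIR25 and MIR106B, in an intron of MCM7, had the steadiest ratio (SD 0.0655, r = 0.850), MIR132 and MIR212 correlated at 0.960, and MIR93 and MIR106B of the MCM7 cluster at 0.427. These 9 pairs share genes and libraries, so they are a description, with no test of the difference. A further 7 pairs of listed clusters had a gene at 0 in every library. Such a 0 need not mean absence, since reads mapping to several places or over several genes were not counted. The same rule can lower the counts of genes in the 9 pairs. The host exons were scarce in other clusters too, with 247 counts on MCM7 and 215 on SMC4 against 335 on DALRD3.

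**Figure D5:**
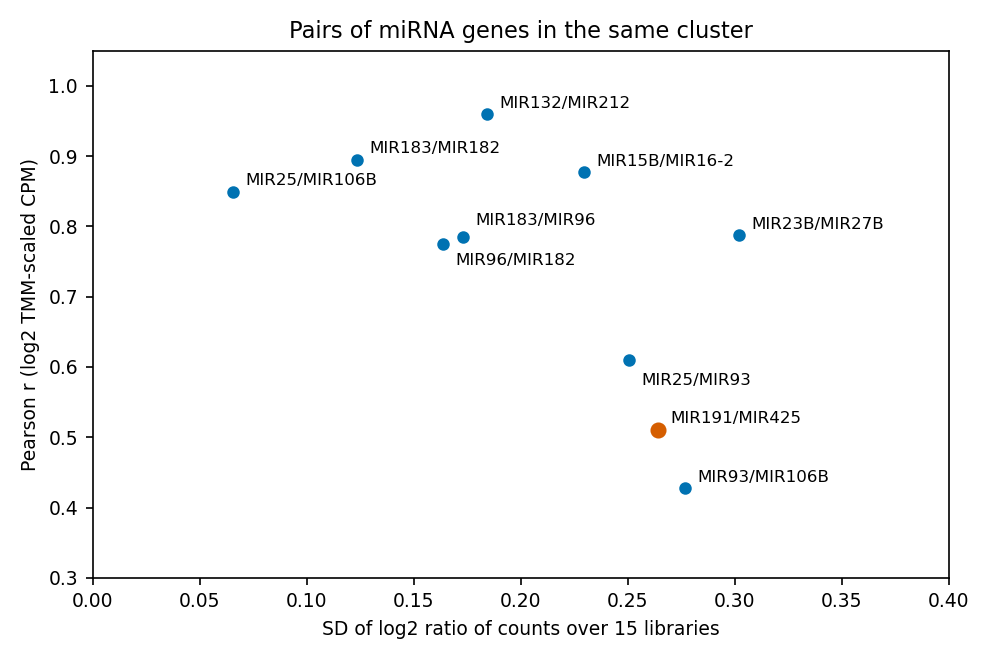
SD of the log2 count ratio over 15 libraries (horizontal axis) against Pearson r of log2 TMM-scaled CPM (vertical axis) for pairs of miRNA genes in one cluster. MIR191 and MIR425 (SD 0.264, r = 0.511) lie at the wide and weakly correlated side of the 9 other pairs.

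Genes around the locus and along the pathways of its products were described from lists, and 0 of their tested members were called in any comparison, with or without the block, by edgeR. The 10 genes with a start within 100 kb of MIR191 had 979 counts together, and 4 could be tested. Of 40 listed arginine tRNA genes, taken whatever their anticodon and not chosen by DALRD3 binding, 19 had counts and 10 were tested. Their log2 differences were above 0 in 8 of 10 for LPL:VLDL against VLDL (median 0.13), in 5 for GKT136901 against LPL:VLDL (median 0.05) and in 9 for GKT136901 against VLDL (median 0.17). Over all 4099 genes 2077, 1963 and 2032 were above 0 in the same order, with medians of 0.01, -0.02 and -0.00. Of the myeloid genes, 10 were tested and 4, 1 and 0 were above 0, with medians of -0.11, -0.41 and -0.41, and the part of this in the values of the locus was not tested.

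TRR-ACG2-1 carried 154075 of the 169228 arginine tRNA counts and averaged 1103 ± 525, 1279 ± 593 and 1259 ± 578 CPM with VLDL, LPL:VLDL and GKT136901. Sums over the list therefore follow mainly this gene and do not read out the tRNAs that DALRD3 binds. The counts of TRR-ACG2-4 (3623), TRR-CCT4-1 (3162), TRR-TCT3-2 (2042), TRR-CCG2-1 (1696), TRR-TCG1-1 (1567) and TRR-CCT2-1 (1345) were far lower, and identical tRNA copies are uncertain in such a table. The arginine tRNA genes summed to 433 to 520 CPM of all counts in the 3 libraries of experiment 2 and to 1098 to 1896 CPM in the other 12, whereas on that scale MIR191 in experiment 2 (9464 to 10637 CPM) lay inside the range of the other libraries (8342 to 14276 CPM). None of the listed tRNA methyltransferase genes had enough counts to test.

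The miRNA-processing genes had fragments enough to test 10 of 19, with medians of -0.00, 0.07 and 0.01 in the 3 comparisons. DDX5, an RNA helicase that works with Drosha, averaged 33.6 ± 9.80, 33.6 ± 8.03 and 36.9 ± 10.7 CPM with VLDL, LPL:VLDL and GKT136901. AGO2, the Argonaute that can cut its targets, averaged 10.9 ± 2.89, 10.9 ± 2.87 and 11.02 ± 1.98 CPM. Among 10 reported targets of miR-191, 9 were tested, with medians of -0.08, -0.00 and 0.16. CDK6, a cell-cycle kinase and the best covered of these at 1033 counts, averaged 8.02 ± 2.80, 7.73 ± 2.37 and 7.65 ± 2.06 CPM. Among 7 reported targets of miR-425, 4 were tested, with medians of -0.10, 0.29 and 0.21. Fragments in a small RNA library do not measure the mRNA level of a target.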

How the data were processed

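The authors deposited raw counts for each gene in every library, not normalized. Reads, per the submitters' processing notes, went through fastp 0.24.0 and STAR 2.7.11b with hg38. Per the file headers, featureCounts 2.0.6 counted reads over exons by gene, without strand, leaving out multiply mapped reads and those over several genes.

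Genes were kept by filterByExpr (minimum count 10), TMM-scaled and tested with edgeR 4.0.16 in R 4.3.3, in 1 model of the 15 libraries without a block (12 residual degrees of freedom; 8 with it), with Benjamini-Hochberg adjustment over all 4099 genes and a threshold of 0.05. Standard errors and intervals were derived from the estimate, its F statistic and the residual plus prior degrees of freedom. Log2 CPM used a prior count of 2. DESeq2 1.42.0 and limma 3.58.1 were alternatives. The script was tested on simulated counts.

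Each replicate number stands for 1 experiment in the labels, which pairs the libraries. Their deviations from the group mean had correlations of 0.0664 to 0.378 in same-numbered pairs (median 0.115), against a median of -0.0703 in others. No 2 libraries of a group agreed within sampling noise (8.59 to 166 chi-square units per degree of freedom).

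Members, lists and comparison clusters were chosen with earlier results of these data known. From the locus, tRNA, processing and target lists, genes with at least 1000 counts or passing the test were named. Marker lists are given as sums, with markers at 0 named, and for the myeloid list also its highest and some low members. The 5 miRNA genes most like each member had the highest r among those of at least 100 CPM. Mature sequences are from RefSeq.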

Additional observations from a re-analysis of the deposited data

How the results depend on the processing

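No treatment difference of MIR191, MIR425 or DALRD3 passed the threshold in any fit run, and the adjusted p (edgeR, limma or DESeq2) was at least 0.591 throughout. With the replicate block, which the pairing calls for, edgeR called 1 gene for LPL:VLDL against VLDL, DESeq2 called 1, and DESeq2 called 2 for GKT136901 against VLDL; the block changed no call of the 3 genes. Alternatives that combine the block with another scaling were added after seeing the data: with miRNA genes alone 3 genes were called for LPL:VLDL against VLDL, MIR191 was at -0.0022 there and MIR425 at -0.0082 for GKT136901 against VLDL, and with library-size scaling MIR191 was at -0.026. Other sign changes were all near 0: MIR191 for LPL:VLDL against VLDL at -0.015 with library-size scaling, MIR425 for GKT136901 against VLDL at -0.0029 with miRNA genes alone, and MIR191 for GKT136901 against LPL:VLDL at -0.013 with no filter. The cause was not tested. Leaving out 1 library moved the LPL:VLDL against VLDL estimates between 0.0018 and 0.23 for MIR191, 0.15 and 0.33 for MIR425 and 0.51 and 0.96 for DALRD3 (0.28 and 0.87 with the block), and DALRD3 for GKT136901 against LPL:VLDL between -1.27 and -0.64 (-1.12 and -0.56 with it). Leaving out 1 library, or with the block 1 experiment, also moved MIR191 for GKT136901 against LPL:VLDL between -0.10 and 0.10 (-0.018 and 0.083 with the block, and -0.010 without experiment 2), MIR425 for GKT136901 against VLDL between 0.0086 and 0.19 (-0.0063 and 0.20 with it), DALRD3 for GKT136901 against VLDL between -0.51 and 0.11 (-0.68 and 0.019 with it), the log2 ratio for GKT136901 against VLDL between -0.059 and 0.100, and the genes called for LPL:VLDL against VLDL between 0 and 2 with the block. For the experiment term, MIR191 was no longer past the threshold with library-size scaling (0.33). MIR425 was past it with a stricter filter (0.69), which called 54.5% of the genes tested. Among miRNA genes alone, where fewer genes were tested, 103 were called (35.6%). Leaving out 1 experiment gave ranges of 0.22 to 0.73 for MIR191, 0.31 to 0.53 for MIR425 and 145 to 460 genes called. DALRD3 had no value with miRNA genes alone or the stricter filter. Its counts of 7 to 46 per library limit what can be read from the host.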
